A study of Saccharomyces cerevisiae with 2 samples.

Results

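The mating-type loci of budding yeast (*Saccharomyces cerevisiae*) are 3 regions of chromosome 3 named HML, MAT and HMR. They were taken as positions 11000 to 15000 (HML), 198500 to 201300 (MAT) and 292000 to 295500 (HMR), called cassette intervals here, each with 3 kb on either side. Together the 3 regions cover 28303 bp of the 12044042 bp of the 16 nuclear chromosomes, and they hold 6 of the 6477 genes of the RefSeq gene table (assembly R64). In vivo nucleosomes were profiled by digestion with micrococcal nuclease (MNase), which cuts between nucleosomes, and sequencing of the protected DNA. The 2 libraries, replicate 1 and replicate 2, came from yeast grown in YPD medium and fixed with formaldehyde, and gel-purified mononucleosomal DNA was read from 1 end for 36 cycles. The labels give neither the strain nor the mating type, the study's supplement names the laboratory strain BY, and no source tells a biological from a technical repeat. With a single condition nothing was tested between conditions, and each SD below is the spread between these 2 libraries.

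A yeast cell expresses the mating-type genes at MAT only. HML and HMR carry full but silent copies, which serve as donors when the mating type is switched. Each silent cassette lies between silencer elements, where the origin recognition complex, Rap1 and Abf1 recruit the Sir proteins, and the Sir proteins spread over nucleosomes with deacetylated histone tails. The cassettes share long identical stretches with MAT, so a short read from such a stretch has more than 1 possible origin.

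HMLALPHA1 and MATALPHA1 are the copies of α1, an activator of α-specific genes, and both are 528 bp long in the gene table. HMLALPHA2 and MATALPHA2 are the copies of α2, a repressor of a-specific genes, and both are 633 bp long. HMRA1 encodes a1, which acts with α2 to repress haploid-specific genes in diploid cells, and HMRA2, of 360 bp, has no known function. By order in the gene table, HML lies between YCL068C and CHA1, which encodes a catabolic serine and threonine deaminase. MAT lies between BUD5, which encodes an activator of the Ras-like GTPase used in bud-site selection, and YCR041W. HMR lies between YCR095W-A and the tRNA gene YNCC0014W. The gene table and the reads use different builds (R64 and sacCer2), so no gene border was laid on the reads, and the members are described by locus.

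The libraries contained 21973866 (replicate 1) and 19288900 (replicate 2) reads, of which 627814 (2.86%) and 575119 (2.98%) lay on chromosome 3. The 3 regions held the centres of 32145 and 27470 of these reads. The distance between plus-strand and minus-strand read edges (the 5′ ends of the reads) was 94 bp in replicate 1 and 85 bp in replicate 2.

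Every cassette interval held long stretches without placed reads. A run without any plus-strand edge in either library extended from 12196 to 13983 at HML (1788 bp) and from 199349 to 201136 at MAT (1788 bp as well). Before it lay runs of 232 bp (11508 to 11739) and 387 bp (11774 to 12160) at HML, and of 239 bp (198655 to 198893) and 388 bp (198927 to 199314) at MAT. From the first plus-strand border to the last minus-strand border, the read-poor stretch spanned 2519 bp at HML and 2518 bp at MAT. HMR had 2 shorter ones, of 710 bp (293024 to 293733) and 206 bp (294380 to 294585), with 646 bp in between from which reads were placed. Silent HML and active MAT thus lacked reads over nearly the same length, and HMR only in 2 shorter stretches inside its interval.

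The borders of these runs carried the mark of sequence that reads cannot be assigned to. In such sequence a 36-base read is lost on the minus strand 35 bp farther right than on the plus strand, whereas a gap between nucleosomes is offset by about the length of a fragment. Over all nuclear chromosomes, 395 read-free runs of at least 300 bp had a median border offset of 35 bp, with quartiles of 32 and 36 bp. The left and right offsets of the 3 HML runs were 35 and 36 bp, 36 and 35 bp, and 35 and 43 bp. At MAT the first 2 runs gave 42 and 35 bp and then 37 and 35 bp. The longest MAT run had a right offset of 36 bp but a left offset of 166 bp, because its minus strand held 5 reads of replicate 1 up to 199514. Without replicate 1, the longest stretch free of edges on both strands at MAT was 1752 bp instead of 1622 bp, next to 1753 bp at HML with both libraries. The first HMR run had offsets of 35 and 23 bp and the second of 28 and 3 bp, so the second does not carry the mark at its right border and is called read-free here, not shared.

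**Figure D1:**
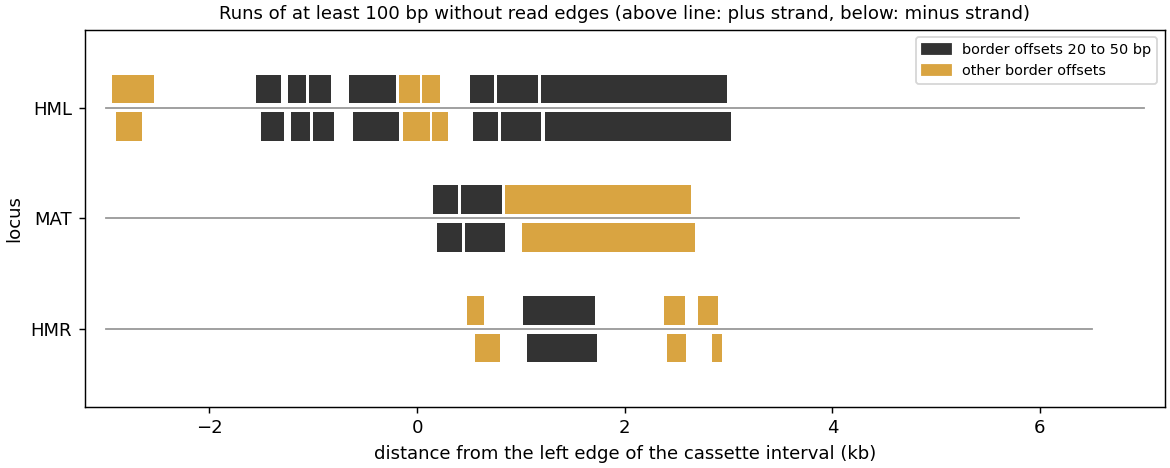
Runs of at least 100 bp without read edges in either library, by distance from the left edge of the cassette interval in kb, with the plus strand above each line and the minus strand below it. Dark bars have border offsets of 20 to 50 bp on both sides, and light bars have another offset on at least 1 side. The HML and MAT cassettes show the same 3 blocks, of which the long MAT block is drawn light for its left offset of 166 bp.

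Read-free runs of at least 100 bp took up 67.6% of the strand positions of the HML cassette interval, 85.9% of those at MAT and 34.8% of those at HMR, against 10.8% for chromosome 3 and 8.60% for all nuclear chromosomes. The left flank of HML also reached 54.8%. The other flanks lay between 0 and 5.28%. In the left flank of HML, 4 runs had both border offsets within 20 to 50 bp, the longest from 10347 to 10795 on the plus strand. The genes to the left of HML are YCL068C, VBA3 and GEX1 in the gene table. VBA3 and GEX1, for a vacuolar amino acid permease and a glutathione exchanger, have near-identical relatives elsewhere in the genome, and whether the runs fall on them could not be read from these coordinates.

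The HML and MAT blocks could be laid over each other by their reads alone. Only shifts near the distance between the starts of the first read-free run of each locus were tried. Of these, 187154 bp gave the highest correlation between read edges at the 2 loci (r = 0.866 across positions, both libraries and strands), and the next best shift gave 0.488. After this shift, the 6 plus-strand borders differed by 0 to 1 bp except at the left end, where the MAT run began 7 bp earlier. This is a correlation across positions of the same libraries, and positions are not replicates.

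Between the blocks lay 2 islands in which reads were placed at both loci. Island 1 spanned 34 positions per strand (HML plus strand 11740 to 11773) and island 2 spanned 35 (12161 to 12195), close to the length of a single read. On island 1, HML had 160 (replicate 1) and 267 (replicate 2) reads, next to 114 and 162 at MAT. On island 2, HML held 177 and 88 reads, and MAT held 164 and 79. HML thus had the higher count in all 4 pairs. The HML share was 58.4% (exact 95% binomial interval 52.3% to 64.3%) and 62.2% (57.5% to 66.8%) on island 1. On island 2 it was 51.9% (46.5% to 57.3%) and 52.7% (44.8% to 60.5%), which was not distinguishable from equal counts. These intervals cover counting error only and treat amplified copies as separate reads. Counted as occupied positions, island 1 had 29 and 34 at HML against 28 and 30 at MAT, a smaller difference than in the reads. Island 2 had 33 and 30 against 27 and 20, a larger one.

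Reads ended at the same bases in silent and active copies. On island 1 the fullest minus-strand position held 25 and 57 reads at HML (11794) and 15 and 26 at the matching MAT position (198948). The fullest position of island 2, on the plus strand, held 35 and 15 reads at HML (12191) and 43 and 25 at MAT (199345). The correlation between HML and MAT over the 68 positions of island 1 was 0.927 in replicate 1 and 0.966 in replicate 2. Between the libraries it was 0.867 at HML and 0.855 at MAT. Over the 70 positions of island 2 the loci correlated with 0.908 and 0.819, and the libraries with 0.832 at HML and 0.964 at MAT. The 2 loci were therefore about as alike within a library as 1 locus was between libraries, over positions that share library and sequence. Whether some reads were placed at the wrong copy was not tested.

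**Figure D2:**
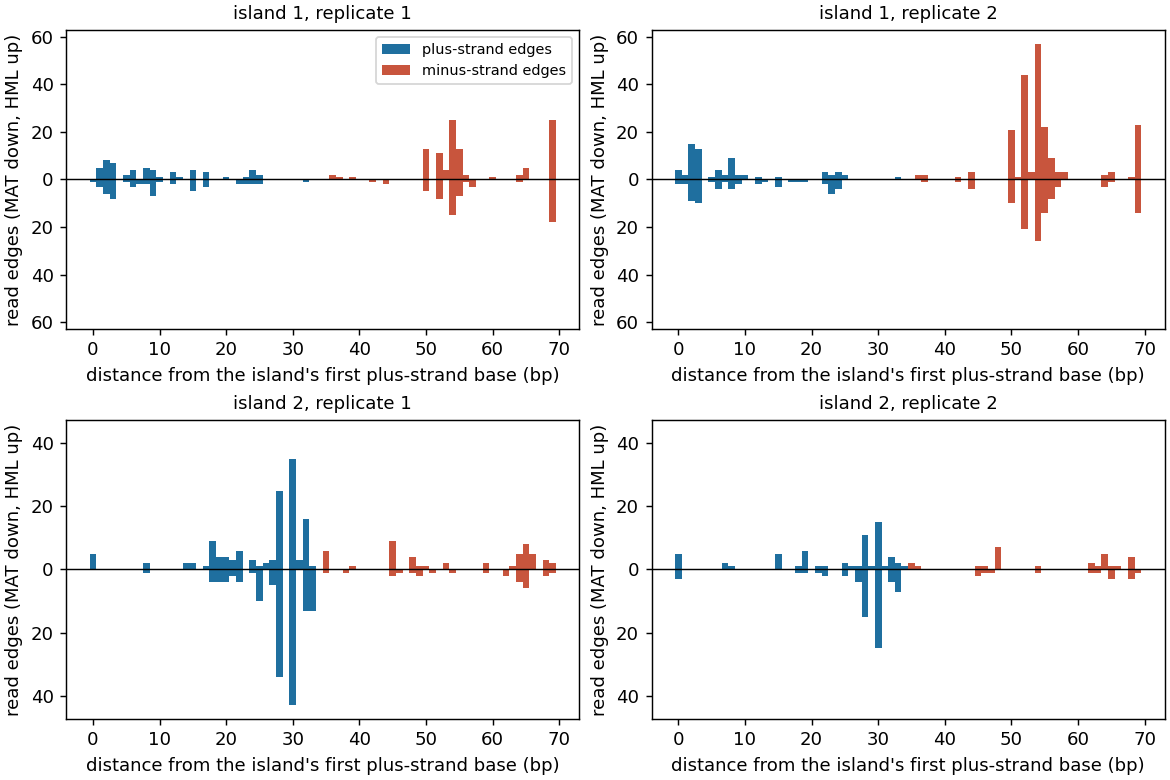
Number of read edges at each position of the 2 islands, by distance from the first plus-strand base of the island in bp, for HML (upward bars) and MAT (downward bars) in each library. Plus-strand and minus-strand edges are coloured apart, and the tallest bars stand at the same positions up and down, such as 57 at HML against 26 at MAT on island 1 in replicate 2.

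Outside the shared stretches, the silent cassettes were depleted of nucleosomal reads. Density is given as read centres per readable strand base (outside the read-free runs of at least 100 bp), as a fold of the chromosome 3 mean. The HML cassette interval had 0.370 in replicate 1 and 0.409 in replicate 2 (0.390 ± 0.0278, SD, n = 2). The HMR cassette interval had 0.479 and 0.339 (0.409 ± 0.0984). At MAT the cassette interval had 1.01 and 1.06, but over only 14.1% of its strand positions, so MAT is described mainly by its flanks. With 1 read per position and strand the values were 0.569 for HML and 0.639 for HMR, both still below the chromosome mean by more than 1.5-fold.

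The low values of HML came from both sides of its shared stretch. The 508 bp to the left of it had 0.232 and 0.209, and the 974 bp to the right had 0.251 and 0.289. The islands inside it had 2.12 and 3.86 (island 1) and 2.28 and 1.23 (island 2), and so stood above the chromosome mean within a cassette that was otherwise below it. The matching MAT islands were also above the mean, with 1.51 and 2.34 (island 1) and 2.11 and 1.11 (island 2). Each island spans only 34 or 35 positions per strand, with borders set by its outermost HML reads. At HMR the 1024 bp to the left of the first read-free stretch had 0.307 and 0.175, and the 915 bp to the right of the second had 0.492 and 0.387. The 646 bp between them had 0.538 and 0.395. In a cell of mating type a, MAT also carries the a-specific sequence of HMR, and the mating type is not given. Next to the MAT stretch, 155 bp on the left had 0.667 and 0.556, and 128 bp on the right had 1.21 and 1.61. On either side of the stretch, both libraries were lower at HML than at MAT.

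The flanks of HMR were also low, with 0.630 and 0.603 on the left and 0.741 and 0.622 on the right. Those of HML had 0.758 and 0.600, and 0.806 and 0.797, and the median window of 500 bp on the chromosome had 0.817. The flanks of MAT had 0.842 and 0.881, and 0.872 and 0.817. With all 4 silent flanks joined, the density was 0.730 in replicate 1 and 0.663 in replicate 2, against 0.857 and 0.849 for both MAT flanks. These differences between flanks are small, and for HML they depended on the setting. With runs of at least 50 bp left out, the left flank of HML had 0.977, above the left (0.847) and right (0.816) flank of MAT. With 1 read per position and strand, the right flank of HML had 1.02, above 0.950 and 1.01 at MAT. The flanks of HMR stayed below those of MAT in both settings, with 0.607 and 0.681 in the first and 0.768 and 0.861 in the second.

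**Figure D3:**
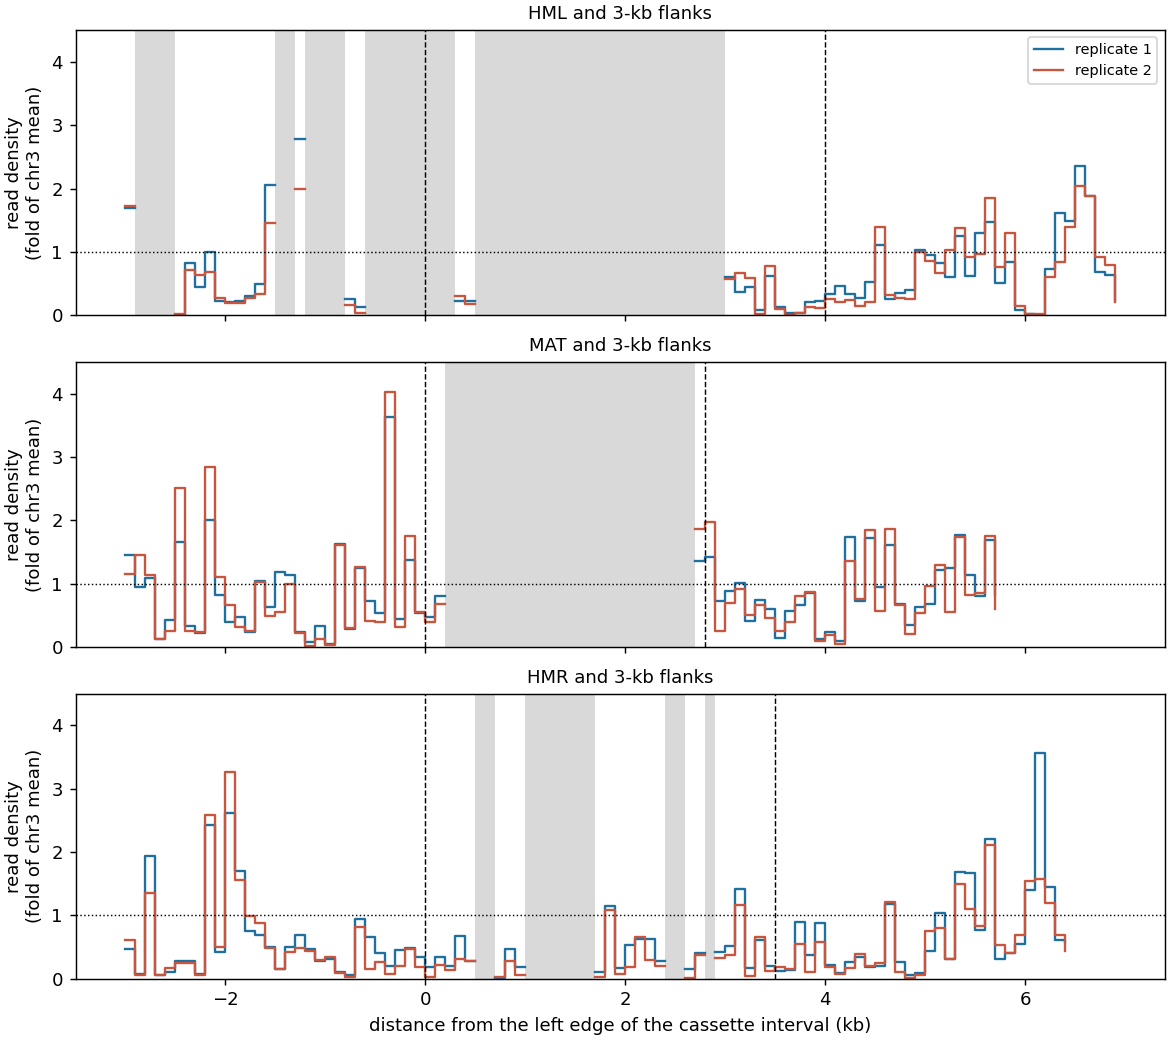
Read density in windows of 100 bp along HML, MAT and HMR as a fold of the chromosome 3 mean (dotted line at 1), by distance from the left edge of the cassette interval in kb, for both libraries. Dashed lines mark the cassette interval, and grey windows had fewer than 100 readable strand bases. At HML and HMR most readable windows inside the dashed lines lie below 1, while MAT shows readable windows almost only in its flanks, with a highest value of 4.03 in replicate 2.

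In windows of 500 bp, the silent loci had more low windows than chromosome 3 as a whole. A window was called low where it was below the chromosome 3 mean by at least 1.5-fold in both libraries, which 33.1% of the 598 readable windows of the chromosome were. At HMR 13 of 18 readable windows were low, among them all 6 of the cassette interval. HML had 8 of 13 low windows, among them all 3 of its cassette interval. MAT had 3 of 14, none of them in the cassette interval, which was below the share of the whole chromosome. Among windows with every strand base readable, 3 of 5 were low at HML, 6 of 11 at HMR and 3 of 12 at MAT, against 27.9% of such windows on the chromosome. With 1 read per position and strand, 5, 8 and 0 windows were low at HML, HMR and MAT, against 11.7% of the chromosome. No window at the 3 loci was above the mean by 1.5-fold in both libraries, which 12.2% of the windows of the chromosome were.

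With both libraries, HMR lay in the run of low windows with the most members on chromosome 3. It extended from 290501 to 297000 (6500 bp) with 12 low windows and 1 unreadable window. Its left edge was abrupt, since the window before it (290001 to 290500) had 1.25 and 1.44 and its first window 0.416 and 0.355. At the right edge the density changed from 0.357 and 0.322 (296501 to 297000) to 1.03 and 0.894. The lowest window was 292501 to 293000, with 0.244 and 0.134. The run around HML extended from 8501 to 16000 (7500 bp) but had 8 low and 7 unreadable windows, and 1 other run, from 180001 to 184000, also had 8. From the HML cassette outwards the density rose by steps, from 0.127 and 0.0786 (14501 to 15000) over 0.389 and 0.212, 0.626 and 0.653, and 0.853 and 0.967 in the next windows. With 1 read per position and strand these runs shrank to 4 low windows at HML and 3 at HMR. In replicate 1 alone, a run elsewhere also had 12 low windows. With no base left out, the run around HML and one elsewhere had 17 each, and with only runs with the border offsets of shared sequence left out, a run elsewhere had 18.

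**Figure D4:**
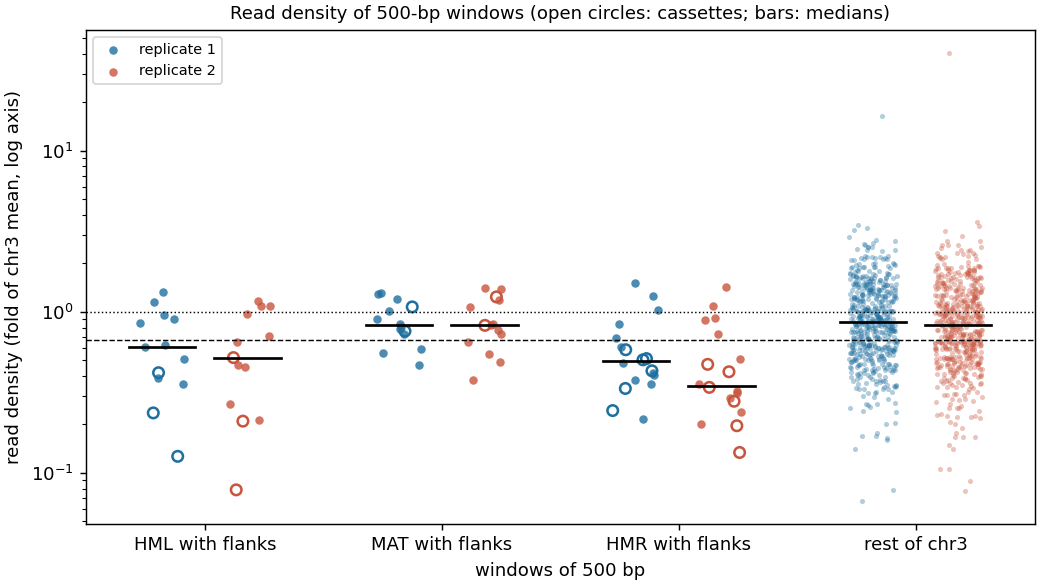
Read density of readable windows of 500 bp as a fold of the chromosome 3 mean, on a log axis, for HML, MAT and HMR with flanks and for the rest of chromosome 3, in replicate 1 and replicate 2. Open circles are windows of the cassette intervals, bars are medians, the dotted line is the mean and the dashed line is 1.5-fold below it. All 9 open circles of HML and HMR in each library lie below the dashed line, and both of MAT lie above it.

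Both silent loci lie near chromosome ends. The regions were therefore set against the same distance from the other 30 ends of nuclear chromosomes. Relative to the nuclear mean, HML with its flanks had 0.768, against 0.632 to 2.60 (median 0.897) for the other ends, of which 5 were lower. HMR with its flanks had 0.662, against 0.614 to 1.69 (median 0.973), and 1 other end was lower. HML was thus within the lower part of the chromosome ends, and HMR was the second lowest at its distance.

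Beside the shared stretches, reads were nearly absent from short stretches on both sides of each silent cassette. These were stretches of at least 80 bp in which the smoothed density of read centres stayed below 5% of the chromosome 3 mean, and such stretches take up 10.2% of the chromosome. HML had one from 11117 to 11342 (226 bp), with 3 and 1 read centres, and one from 14609 to 14757 (149 bp), with 6 and 2. Another stretch adjoined the first on the left, from 10866 to 11057 (192 bp), with 3 and 0 read centres. HMR had one from 292544 to 292799 (256 bp), with 2 and 3 read centres, and one from 294786 to 294888 (103 bp), with 1 and 0. The read-free runs that overlap the stretches at 11117 and 292544 had border offsets of 91 and 73 bp and of 78 and 149 bp, unlike the 35 bp of shared sequence. Those over the stretches at 10866 and 294786 had such an offset at 1 border only, with 34 and 89 bp and with 129 and 35 bp. The silencers E and I are known to flank the cassettes, but their positions were not joined to these coordinates. In the MAT flanks the single such stretch was 197263 to 197360 (98 bp), with 2 and 1 read centres.

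Farther out, the right flank of HML had a depleted stretch from 16984 to 17222 (239 bp), with 3 and 6 read centres. At 150 bp to either side of it the density was 0.592 and 0.918 on the left and 1.53 and 0.885 on the right. In the HMR flanks, the stretches 289337 to 289453 and 296813 to 296901 held 2 and 0, and 10 and 1 read centres. In all, 6 depleted stretches without the offsets of shared sequence at both borders lay at HML, 5 at HMR and 2 at MAT, of 114 on chromosome 3. The 3 regions make up 28303 bp of the 316614 bp of the chromosome, and with such small counts the loci were not set apart from it. One of the 2 at MAT was the long shared stretch with the 5 reads of replicate 1, and one of the 5 at HMR overlapped its second read-free stretch (294380 to 294585). Because the limit is a share of the chromosome mean, a region of low density meets it more easily.

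Nucleosome positions were called from read centres smoothed with an SD of 20 bp, at least 147 bp apart. HML with its flanks had 28 positions (2.80 per kb), MAT 27 (3.07) and HMR 33 (3.47), next to 3.90 per kb on chromosome 3, where bases without placed reads lower the number. The median height of a position, the smoothed density at its centre, was 1.42 times the chromosome mean at HML, 1.85 at MAT and 1.20 at HMR, against 1.84 on chromosome 3. It was 0.939 over the 6 positions of the HML cassette interval and 0.758 over the 12 of HMR, next to 1.015 over the 4 of MAT. Heights were not corrected for strand positions without placed reads, so those in the cassette intervals are lowered where they adjoin read-free runs. Positions lower than 0.5 times the mean were 6.72% of those on chromosome 3. They numbered 5 of 28 at HML, 6 of 33 at HMR and 3 of 27 at MAT.

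The HMR cassette interval held positions of uneven height and spacing. All 12 positions were called in both libraries, with heights from 0.382 to 2.04 times the chromosome mean. Distances to the previous position ranged from 164 to 808 bp. The highest, at 295118, had 415 and 300 read centres within 73 bp, which is 1.42 and 1.12 times the mean over all bases of the chromosome. In the part between the read-free stretches, positions 293858 (274 and 224 reads) and 294203 (242 and 157 reads) were 345 bp apart. On the left, positions 292142, 292322 and 292486 followed each other at 180 and 164 bp, close to the most frequent distance on the chromosome of 161 bp, and held 95 and 47, 193 and 92, and 68 and 61 reads. Replicate 2 had fewer reads at each of these positions, but relative to the chromosome mean the libraries were about equal at 292486 (0.233 and 0.228). The position at 293050, with 233 and 149 reads, borders the first shared stretch, where reads could not be placed to its right.

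At HML, 3 positions followed the shared stretch on the right, at 14030, 14197 and 14449, with 120 and 104, 174 and 242, and 144 and 160 reads. After the depleted stretch, the flank began with 3 low positions, of which the one at 15002 had 106 and 67 reads. The highest position of the HML region was at 17514 in the right flank, with 782 and 622 reads. Between it and the depleted stretch that ended at 17222 lay the position at 17312, with 462 and 250 reads. At MAT the position at 201299, at the right edge of the cassette interval, had 603 and 771 reads, and that at 198150 in the left flank had 884 and 878. These 2 MAT positions were each higher in both libraries than any position in the silent cassettes, but not than all in the silent flanks. There, 290050, 298180 and 17514 had heights of 4.79, 4.78 and 4.67, above the 4.03 of 201299. The other positions of the MAT cassette interval had heights of 0.993, 0.924 and 1.04, within the range of the silent cassettes. Those of 0.924 (198910) and 1.04 (199389) rest on the islands. Their heights are lowered by the bases without placed reads around them, so they do not compare MAT with the silent cassettes.

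Positions of the silent loci recurred between the libraries. Of the positions called in replicate 1 alone, 32 of 33 at HMR had a partner within 20 bp in replicate 2, 24 of 27 at HML and 22 of 29 at MAT, against 81.1% on chromosome 3. The median sharpness, which is the share of reads within 20 bp of a position among those within 73 bp, was 60.4% at HMR, 57.6% at HML and 56.0% at MAT. On chromosome 3 it was 55.3%, with quartiles of 47.0% and 64.6%. Positions next to a read-free stretch lack reads on 1 side and are not comparable in sharpness, such as 294548 with 92.1%. Where reads could be placed only in a narrow stretch, as in the islands under 11754 and 12232 at HML, both libraries can peak only there. A match at such positions does not measure how well a nucleosome is placed.

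**Figure D5:**
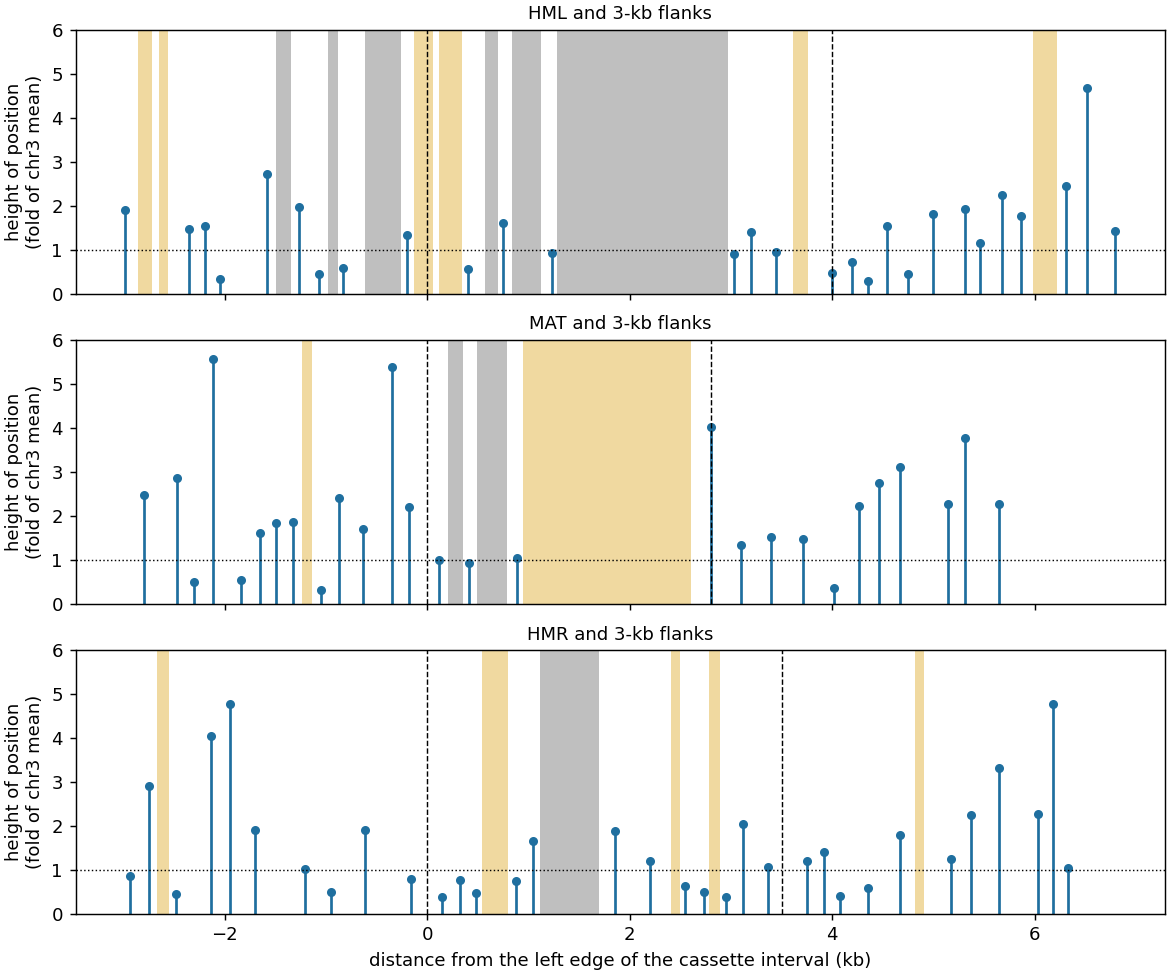
Called nucleosome positions along HML, MAT and HMR, by distance from the left edge of the cassette interval in kb, with the height of each as a fold of the chromosome 3 mean in both libraries together. Light bands are depleted stretches, grey bands those with the border offsets of shared sequence, and dashed lines mark the cassette interval. Inside the cassettes of HML and HMR the heights stay at or below 2.04, and the long MAT band is the shared stretch that holds 5 reads of replicate 1.

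The lowest windows of 100 bp held a few reads at all 3 loci. The lowest at HML were 17100 to 17199, with 0 and 3 reads, 8500 to 8599, with 2 and 4, and 14600 to 14699, with 8 and 0. At HMR they were 292700 to 292799, with 1 and 3 reads, 296800 to 296899, with 13 and 1, and 291200 to 291299, with 12 and 5. At MAT they held 17 and 2, 12 and 7, and 20 and 11 reads. The highest window of the 3 regions was 198100 to 198199 in the left flank of MAT, with 807 and 820 reads, or 3.63 and 4.03 times the mean. The highest of HMR, 290000 to 290099 and 298100 to 298199, lay beyond the 2 ends of the low run, with 581 and 664, and 793 and 319 reads. No readable window of a cassette interval, at MAT as at HML and HMR, was among the 3 highest of its locus.

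Replicate 2 was the lower library in some windows. With all reads kept these were more at HMR than at HML or MAT, by a margin that depended on the setting. Of the 598 readable windows of 500 bp on chromosome 3, 4.68% had a density in replicate 2 at least 1.5-fold below that in replicate 1. At HMR 6 of 18 windows did, at HML 2 of 13 and at MAT 1 of 14. Of the 6 windows at HMR, 4 lay in the cassette interval, where the density of replicate 2 was 0.709 times that of replicate 1. Low windows outside the loci differed this way in 4.60% of 174 cases. With the median window or all nuclear chromosomes as the reference, HMR had 3 of 18 windows, HML 2 of 13 and MAT 0 of 14. The share of the chromosome was 3.68% for either reference. With chromosome 3 without its outer 20 kb, HMR and HML had the same counts and MAT had 1, next to 3.85%. The shares of HMR and HML were then close. With no base left out, HMR had 6 of 19, HML 5 of 20 and MAT 2 of 18, next to 5.37%. With only runs of offset 20 to 50 bp left out, they had 6 of 18, 3 of 14 and 2 of 18, next to 5.16%. With at most 20 reads per position and strand, HMR and HML had 2 windows each, next to 2.34% of the chromosome. With 1 read they had 1 and 0, next to 0.669%. The windows in which replicate 2 was the higher by 1.5-fold were 0.836% of the chromosome, and none lay at the 3 loci. Replicate 2 had the shorter strand distance, and its part in the difference was not tested.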

How the data were processed

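The authors deposited a line for every aligned read that gives chromosome, both ends and strand, with no count or score. The unit used is therefore the position of a read, which belongs to none of the usual units. Each line spans 150 bp, the build sacCer2 comes from the submitters' processing notes, and the aligner and its handling of reads with several positions are not given in the sources used here. Replicates were not pooled by the authors, and duplicates were kept.

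Read edges were the starts of plus-strand and the ends of minus-strand lines, both counted from 1 as deposited. Edges were moved by 47 bp (replicate 1) and 43 bp (replicate 2), about the midpoint of the strand distance, to give read centres. Density left out strand positions in runs of at least 100 bp without an edge in both libraries together, which also removes some depleted DNA. It was divided by the chromosome 3 mean of 1.11 and 1.02 reads per readable strand base. Heights of positions, and densities at positions and around depleted stretches, were divided by the mean over all chromosome 3 bases instead (1.98 and 1.82 reads per bp). They are therefore not on the same scale as the densities of intervals and windows. Windows of 500 bp needed 200 readable strand bases and windows of 100 bp needed 100. Positions needed a height of 0.25 times the mean and were chosen from the highest down. The functions were tested on simulated data. Python 3.11.15 with numpy 2.4.6, scipy 1.17.1, pandas 2.3.3 and matplotlib 3.10.9 was used.

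The loci, lists and settings were chosen with earlier results of these data known. The offset range of 20 to 50 bp, the depleted stretches and the islands were defined after seeing the reads. Named windows were the highest and lowest 3 of each locus. Neighbouring genes came by order from the gene table. Protein and promoter sequences were not analysed here.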

Additional observations from a re-analysis of the deposited data

How the results depend on the processing

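No alternative put the silent cassettes above the chromosome 3 mean, and the number of nucleosome positions at each locus stayed within 1.5 times its value under every alternative run (23 to 35 at HML, 24 to 37 at MAT, 27 to 43 at HMR). The density of the HML cassette interval was 0.569 with 1 read per position and strand, 0.420 with at most 20, 0.481 and 0.348 with runs of at least 50 and 200 bp left out, 0.141 with no base left out, 0.473 against the median window, 0.445 against the nuclear mean, and 0.342 with only runs of offset 20 to 50 bp left out, a setting chosen after seeing the data. In the same order the MAT cassette interval had 1.13, 1.13, 0.978, 0.935, 0.163, 1.25, 1.18 and 0.202, the values of 0.163 and 0.202 because the shared stretch is then counted as readable. The HMR cassette interval had 0.639 with 1 read per position and strand and 0.299 with no base left out. The 4 silent flanks had 0.852 with 1 read, 0.765 with at most 20, 0.844 against the median window and 0.793 against the nuclear mean. The MAT flanks had 0.979, 0.926, 1.03 and 0.971 in these settings, 0.831 and 0.891 with runs of 50 and 200 bp, 0.956 with no base left out, 0.879 against chromosome 3 without its outer 20 kb, and 0.919 with the offset setting. With 1 read per position the low windows numbered 5 of 13 at HML, 0 of 14 at MAT and 8 of 18 at HMR, against 11.7% of the chromosome. With no base left out they numbered 15 of 20, 8 of 18 and 14 of 19 in the same order, against 32.2%. Against the median window they numbered 6 of 13, 1 of 14 and 11 of 18, next to 22.1%. With the offset setting they numbered 9 of 14, 7 of 18 and 13 of 18, next to 31.9%. MAT was thus above the chromosome share with no base left out and with the offset setting, where its shared stretch is counted as readable.

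The longest read-free run was 1754 to 1761 bp at HML, 1622 to 1752 bp at MAT and 652 to 678 bp at HMR in single libraries. It was 1788, 1788 and 687 bp on the plus strand alone, and 1796 bp at HML and 675 bp at HMR on the minus strand alone. The share of positions at the 3 loci matched between the libraries, 87.6%, was 78.7% within 10 bp, 71.9% with a move of 73 bp, 75.8% and 80.5% with a smoothing SD of 10 and 40 bp, 90.9% and 85.4% with an exclusion zone of 120 and 160 bp, 84.8% with no minimum height, 84.2% with one of 0.5 times the mean, and 76.8% with 1 read per position. The most frequent distance on chromosome 3 was 158 to 162 bp in single libraries, 173 bp with an SD of 40 bp and 165 bp with a zone of 160 bp. Where no cause is given, it was not tested. The edges needed no correction, so that alternative gave no separate value. No paired analysis was possible because there is a single condition.

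The depth limits what can be said of the depleted stretches, in which single reads decide a count. What can be said of MAT is limited because reads could not be placed in most of its cassette interval.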
